A study of Homo sapiens with 2 samples.

Results

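The SOX family of transcription factors was followed through 6 human breast cancer cell lines profiled cell by cell. The 8 genes described, SOX2, SOX4, SOX9, SOX10, SOX11, SOX12, SOX13 and SOX15, were chosen by gene symbol, and each symbol was found in 1 row among 36601 genes. SOX proteins bind the minor groove of DNA through a shared HMG box and bend it, and they usually act together with a partner transcription factor. The SoxC group (SOX4, SOX11 and SOX12) is known from progenitor cells of the nervous system and mesenchyme, and SOX4 also from TGF-beta-driven epithelial-mesenchymal transition in breast epithelium. The SoxE group holds SOX9, a master regulator of cartilage, and SOX10, a regulator of neural crest and its derivatives that is used as a marker of some triple-negative breast tumours. SOX2 (SoxB1) is a pluripotency factor, SOX13 belongs to the SoxD group, and SOX15 is the sole SoxG member.

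By its title, the study sought surface markers with which subpopulations of cancer cells can be isolated. BT-474, MDA-MB-231 and MDA-MB-453 cells formed a pool, and HCC38, Hs578T and MDA-MB-436 cells formed the other. Each line carried its own multiplexing oligo, and each pool was captured with a droplet-based 3′ kit. The labels name no treatment or engineered change, and each line was sampled as 1 culture. There were therefore no replicates and no test across samples, and every interval given is a 95% interval that covers counting error only.

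Barcodes fell into 6 groups by suffix, each led by 1 oligo in every barcode. With at most 20% mitochondrial UMIs (unique molecular identifiers, 1 per captured transcript), 15547 of 17605 barcodes remained, between 1989 and 3451 per group, with 70.0 M to 96.6 M UMIs per group and median UMIs per cell between 20306 and 38069. Suffix 1 led the groups in 12 of 12 BT-474 markers, suffix 2 in 7 of 12 for MDA-MB-231, suffix 3 in 8 of 12 for MDA-MB-453, suffix 4 in 9 of 12 for HCC38 and suffix 5 in 11 of 12 for Hs578T, and these groups are named after those lines. Suffix 6 led in 6 of 10 markers of MDA-MB-436, the line of its pool that remains once suffixes 4 and 5 are named, and it keeps its number in the text. The marker lists of all lines drew in part on earlier results of these data. Leads in them are therefore not independent support for any of the names. Of 12 genes of immune and endothelial cells, none reached 10 CPM (UMIs scaled to the same total in every group) in any group. The 2 captures shared 20 barcode sequences. In 322 cells, between 26 and 94 per group, the leading transcripts of a different line from the same pool stood at 25% or more of that line's own level. Results that these mixed cells touch are given with and without them. The median mitochondrial share was 14.5% in BT-474-like cells and between 5.84% and 9.87% in the other 5 groups.

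Promoters are shown for a pair of SoxC genes that behaved differently between cells: SOX4, whose count per cell had the highest ratio of variance to mean, and SOX12, whose count varied little in any group. The windows run from 250 bases before to 50 bases after the RefSeq start (GRCh38.p14), at chr6:21593501-21593800 for SOX4 and chr20:325302-325601 for SOX12, both on the plus strand. Capitals mark the CCAAT box (CCAAT, or ATTGG on the other strand) and the GC box (GGGCGG, or CCGCCC on the other strand), and no marked box overlaps another.
SOX4: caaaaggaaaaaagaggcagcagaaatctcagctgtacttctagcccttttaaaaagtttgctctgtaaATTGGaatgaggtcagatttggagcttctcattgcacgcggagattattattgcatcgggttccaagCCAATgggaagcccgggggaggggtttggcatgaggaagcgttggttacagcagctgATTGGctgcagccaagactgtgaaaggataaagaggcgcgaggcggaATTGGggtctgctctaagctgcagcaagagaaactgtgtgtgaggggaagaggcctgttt
SOX12: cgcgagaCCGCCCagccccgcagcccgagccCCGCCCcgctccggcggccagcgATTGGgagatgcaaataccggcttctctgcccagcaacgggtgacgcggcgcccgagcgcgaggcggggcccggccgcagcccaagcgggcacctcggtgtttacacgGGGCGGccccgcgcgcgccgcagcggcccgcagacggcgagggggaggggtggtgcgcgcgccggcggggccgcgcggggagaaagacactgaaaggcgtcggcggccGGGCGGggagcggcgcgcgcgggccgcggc
The SOX4 window held 4 CCAAT boxes and 0 GC boxes at a GC content of 49.3%, and the SOX12 window held 1 CCAAT box and 4 GC boxes at a GC content of 80.3%. Of 35116 promoters of 300 bases, 34.6% held a CCAAT box and 45.0% a GC box on either strand. The letters AACAAT, a core bound by SOX proteins, were in neither window and in 10.1% of all promoters. In GENCODE 29 (GRCh38) SOX4 is a gene of 1 exon at chr6:21592768-21598619 on the plus strand, so the RefSeq window lies inside the span that GENCODE gives to the gene. SOX12, also of 1 exon, lies at chr20:325595-330224 on the plus strand.

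SOX4, the most studied SoxC factor in breast cancer, was detected in all 6 groups and was far higher in BT-474-like cells than elsewhere. Its level was 543.8 CPM in BT-474-like cells (538.4 to 549.3), 168.3 CPM in HCC38-like, 158.4 CPM in MDA-MB-453-like and 141.7 CPM in Hs578T-like cells, 35.3 CPM in suffix 6 (34.0 to 36.7) and 29.2 CPM in MDA-MB-231-like cells (28.1 to 30.4). The BT-474-like level was 3.23 times that of HCC38-like cells, the next group (interval 3.17 to 3.29). HCC38-like, MDA-MB-453-like and Hs578T-like cells formed a middle level, with ratios of 1.06 and 1.12 between neighbours, and Hs578T-like cells stood 4.01-fold above suffix 6 (3.85 to 4.18). Counting intervals of neighbours did not overlap, but differences as small as those in the middle level have no replicate check. Their order also depended on scaling. With TMM factors, another scaling of the group totals, HCC38-like cells (factor 1.16) fell below MDA-MB-453-like (0.981) and Hs578T-like cells (0.956). Without mixed cells the level was 22.5 CPM in MDA-MB-231-like cells, 33.8 CPM in suffix 6 and 546.8 CPM in BT-474-like cells. Transcripts of the other lines of a pool were present at a low level in every group. The 50 genes most specific to BT-474-like cells stood in MDA-MB-231-like cells, mixed cells left out, at a median of 1.22% (highest 3.23%) of their BT-474-like level, and SOX4 stood at 4.12%. These 50 genes were chosen as those with the largest ratio of BT-474-like to MDA-MB-231-like level, with SOX genes left out of the choice. Their range is low by that choice, here and in the other groups. A value above it therefore does not show expression beyond background. The gene AL512380.2 overlaps SOX4 on the opposite strand, and whether counting used the strand is not given in the sources used here.

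SOX11, a SoxC factor of developing neurons, was highest in BT-474-like cells. It was at 39.3 CPM there (37.8 to 40.8), 5.20 CPM in MDA-MB-453-like cells, 3.26 CPM in suffix 6, 0.973 CPM in MDA-MB-231-like, 0.361 CPM in Hs578T-like and 0.197 CPM in HCC38-like cells. The BT-474-like level was 7.56 times the next (6.80 to 8.41), and the 2 lowest groups overlapped. Without mixed cells, SOX11 in MDA-MB-231-like cells was at 0.447 CPM, or 1.14% of its BT-474-like level, within the range of the 50 BT-474-specific genes. In MDA-MB-453-like cells it was at 12.3% of the BT-474-like level, where the highest of the 50 genes chosen in the same way stood at 7.94%, a limit that is low by selection. SOX11 (chr2:5692667-5701385) overlaps AC108025.2 on the same strand, and reads of the pair may not have been told apart.

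SOX12, the remaining SoxC gene and a weaker activator than its relatives in mouse assays, had the flattest profile. It was at 35.6 CPM in MDA-MB-453-like cells, 29.4 CPM in BT-474-like cells, 21.2 CPM in suffix 6, 21.1 CPM in HCC38-like, 15.2 CPM in Hs578T-like and 10.8 CPM in MDA-MB-231-like cells. Suffix 6 and HCC38-like cells could not be separated (ratio 1.00, interval 0.940 to 1.07). MDA-MB-231-like cells thus had the lowest level of the 6 groups in both SOX4 and SOX12.

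**Figure D1:**
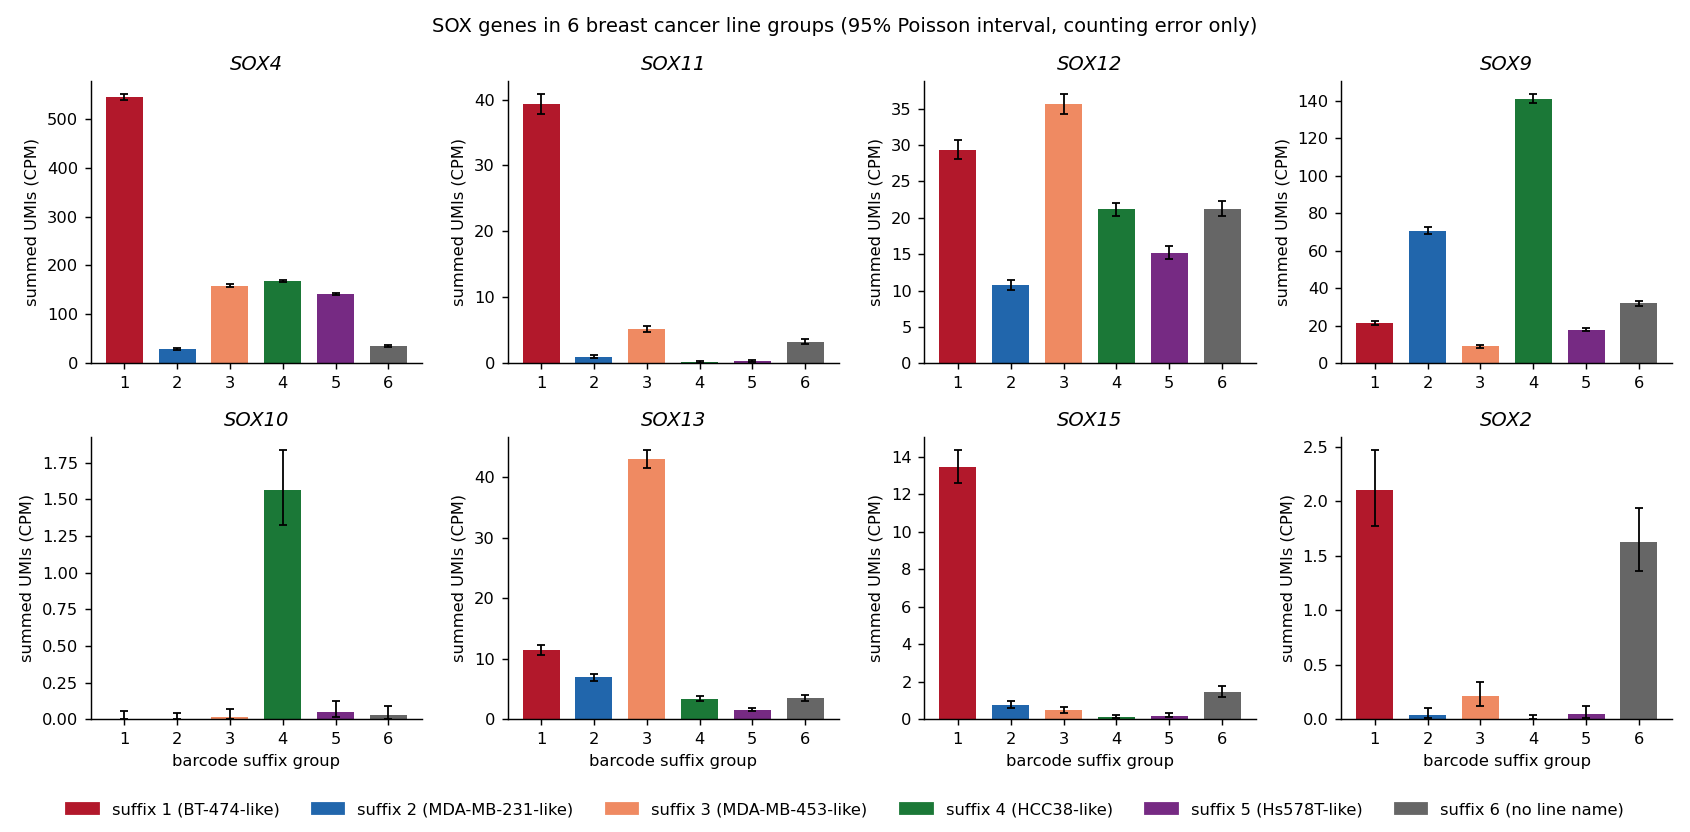
Summed UMIs of the SOX genes as CPM in the 6 barcode suffix groups, 1 culture each, with 95% Poisson intervals of counting error. SOX4, SOX11 and SOX15 were highest in BT-474-like cells (543.8, 39.3 and 13.5 CPM), SOX9 in HCC38-like cells (141.1 CPM), and SOX12 and SOX13 in MDA-MB-453-like cells (35.6 and 43.0 CPM).

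SOX9 followed another order. Its level was 141.1 CPM in HCC38-like cells (138.7 to 143.4), 70.7 CPM in MDA-MB-231-like cells, 32.1 CPM in suffix 6, 21.4 CPM in BT-474-like, 17.9 CPM in Hs578T-like and 9.10 CPM in MDA-MB-453-like cells (8.44 to 9.80). HCC38-like cells stood 1.99-fold above MDA-MB-231-like cells (1.94 to 2.06), and no neighbours in the order overlapped. MDA-MB-231-like cells, the lowest group in SOX4, were next to the highest in SOX9. SOX10, the other SoxE gene, did not reach 10 CPM anywhere. It had 151 UMIs in HCC38-like cells, a level of 1.56 CPM (1.32 to 1.83), and 0 to 4 UMIs in each other group. Without mixed cells, SOX10 in Hs578T-like cells and in suffix 6 stood at 2.33% and 0.808% of its HCC38-like level, where the 50 genes most specific to HCC38-like cells had medians of 0.978% and 0.875%. With 0 UMIs, BT-474-like and MDA-MB-231-like cells may hold up to 0.0428 and 0.0352 CPM of SOX10, at 3 counts per group.

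SOX13 was at 43.0 CPM in MDA-MB-453-like cells (41.5 to 44.4), 11.4 CPM in BT-474-like, 6.91 CPM in MDA-MB-231-like cells, 3.49 CPM in suffix 6, 3.40 CPM in HCC38-like and 1.55 CPM in Hs578T-like cells. MDA-MB-453-like cells stood 3.78-fold above the next group (3.50 to 4.09), and suffix 6 and HCC38-like cells overlapped. All 3 groups of 1 capture were above all 3 of the other, so capture and line cannot be told apart for that split. SOX15 was at 13.5 CPM in BT-474-like cells (12.6 to 14.3), 1.45 CPM in suffix 6, 0.750 CPM in MDA-MB-231-like, 0.469 CPM in MDA-MB-453-like, 0.192 CPM in Hs578T-like and 0.124 CPM in HCC38-like cells. The BT-474-like level was 9.26 times the next (7.62 to 11.3). In MDA-MB-453-like cells without mixed cells SOX15 stood at 2.40% of its BT-474-like level, within the range of BT-474-specific genes there. In MDA-MB-231-like cells it stood at 4.11%, above the highest of them, but that range is low by selection. SOX2 had 147 UMIs in BT-474-like cells (2.10 CPM, 1.77 to 2.47) and 129 in suffix 6 (1.63 CPM, 1.36 to 1.94), which overlapped. It had 16 UMIs in MDA-MB-453-like, 4 in Hs578T-like, 3 in MDA-MB-231-like and 0 in HCC38-like cells. SOX2 (chr3:181711924-181714436) lies inside SOX2-OT on the same strand.

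The 6 members that reached 10 CPM in a group were then counted past 2-fold in each group. SOX11 and SOX15 reached that limit in BT-474-like cells only, with at most 5.20 and 1.45 CPM elsewhere. Their being highest there was thus fixed by the limit, and their calls in the counts below, higher or lower, are no separate support. Among the remaining members, those at least 2-fold above the other 5 groups were SOX4 in BT-474-like, SOX13 in MDA-MB-453-like and SOX9 in HCC38-like cells. On the scale of log2(CPM + 1), which understates differences of low genes, 3 of 6 members were at least 2-fold higher in BT-474-like cells than in the mean of the other 5 groups (SOX4 at 2.34, SOX11 at 3.75, SOX15 at 3.18) and 1 was lower (SOX9 at -1.30), while 7.37% of 10901 measured genes were higher and 27.1% lower by that rule. MDA-MB-231-like cells had 0 higher and 4 lower (SOX4 at -2.80, SOX11, SOX12 and SOX15), beside 6.56% and 17.2% of all genes. MDA-MB-453-like cells had 1 higher (SOX13 at 2.79) and 2 lower (SOX9 and SOX15), beside 10.5% and 23.1%. HCC38-like cells had 1 higher (SOX9 at 2.19) and 3 lower (SOX11, SOX13 and SOX15), beside 10.3% and 13.4%. Hs578T-like cells had 0 higher and 4 lower (SOX9, SOX11, SOX13 and SOX15), beside 9.65% and 17.4%. Suffix 6 had 0 higher and 3 lower (SOX4, SOX11 and SOX13), beside 9.52% and 20.1%. The members' median log2 ratio was 1.41 in BT-474-like cells, where that of all genes was -0.41. It was -1.18 in MDA-MB-231-like and -1.70 in Hs578T-like cells, where that of all genes was -0.16 in both. In the other 3 groups it lay between -0.98 and -0.44. SOX11 and SOX15 are in these medians, which are therefore no separate support either. SOX11 and SOX15 stood at least 4-fold above the next highest group, as 6.16% of genes did in any group and 1.08% in BT-474-like cells. In the other groups no member did, beside 0.651% of genes in MDA-MB-231-like, 0.881% in MDA-MB-453-like, 1.16% in HCC38-like and 1.71% in Hs578T-like cells and 0.679% in suffix 6. Against the lines of their own capture only, 3 members were at least 2-fold higher in BT-474-like cells and 1 lower (7.47% and 21.3% of genes). In MDA-MB-231-like cells 1, SOX9 at 2.14, was higher and 5 lower (18% and 16.2%), and in MDA-MB-453-like cells 1 was higher and 3 lower (11.4% and 17.3%). HCC38-like cells had 1 higher and 1 lower (14.9% and 13.7%), Hs578T-like cells 0 higher and 2 lower (9.74% and 15.7%), and suffix 6 had 2 higher, SOX11 and SOX15, and 2 lower (9.72% and 19.6%).

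The genes most like a member across the groups are named as a description over 6 points, which share library and depth. SOX4 was most like GATA2, which encodes a zinc finger transcription factor (r = 0.974), with 56.0 CPM in BT-474-like cells and 3.94 CPM in suffix 6, and then like C12orf76 and IFT122. SOX9 was most like SNCG, which encodes gamma-synuclein (r = 0.990, 80.9 CPM in HCC38-like cells), the polarity gene PARD3 and GPATCH8. SOX11 was most like the mitochondrial gene MT-CYB (r = 0.997), ENDOG and SLC9A2, and the mitochondrial share was also highest in BT-474-like cells. SOX12 was most like the DNA methyltransferase gene DNMT3A (r = 0.995), CEP170B and TSFM. SOX13 was most like DENND11 (r = 0.992), CAB39L and NBEA. SOX15 was most like GREB1, an oestrogen-induced gene (r = 0.997, 40.9 CPM in BT-474-like and 0.259 CPM in HCC38-like cells), NRCAM and TMEM150C.

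Genes linked to these factors were followed as lists. Of 19 genes linked to SOX10 and to neural crest or basal cells 8 were measured, and in HCC38-like cells, the group with SOX10 UMIs, 4 of the 8 were at least 2-fold higher than in the other groups and 0 lower (median log2 ratio 1.42), beside 10.3% and 13.4% of all genes (median -0.02). MIA, which encodes a protein secreted by melanoma and cartilage cells, was at 82.4 CPM in HCC38-like cells and at most 1.43 CPM elsewhere, and the homeobox gene EN1 was at 81.5 CPM in HCC38-like and 12.6 CPM in Hs578T-like cells. Of 16 cartilage genes linked to SOX9, 2 were measured, MIA and the collagen gene COL9A3 (38.8 CPM), and both were highest in HCC38-like cells, as SOX9 was. MIA is in both lists and reached the 10 CPM limit in HCC38-like cells only, so its being highest there was fixed by that limit. Of 23 measured genes of TGF-beta signalling and SOX4-linked transition, 2 were at least 2-fold higher and 14 lower in BT-474-like cells (median -3.61), the group with most SOX4, where 7.37% of all genes were higher and 27.1% lower (median -0.41). In Hs578T-like cells 14 were higher and 2 lower (median 1.49), beside 9.65% and 17.4% of all genes (median -0.16). Members of the list differed in direction: PMEPA1, a TGF-beta-induced feedback gene, was at 386.2 CPM in BT-474-like and 80.3 CPM in Hs578T-like cells, and VIM, which encodes vimentin, at 56.1 and 6806 CPM. Of 11 measured neuronal genes linked to SoxC, 1 was higher and 3 lower in BT-474-like cells (median -0.66), shares near those of all genes (7.37% and 27.1%), and MARCKSL1, an actin regulator, was highest there at 328.2 CPM. Of 13 pluripotency genes linked to SOX2 only KLF4 was measured, and it passed 2-fold in no group.

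Between cells of the same group, SOX4 was the member with the highest ratio of variance to mean, a ratio that tends to rise with the mean. Each cell was thinned to 10000 UMIs, which kept 1953 to 3419 cells per group, and the variance of its counts was divided by their mean, a ratio near 1 for cells that differ by counting only. Of 24 pairs of member and group with a mean of at least 0.05 UMI, 7 had a ratio of 1.5 or more, with and without mixed cells. These were SOX4 in all 6 groups and SOX9 in HCC38-like cells (1.77). Among all genes with such a mean, 4.44% reached that ratio in BT-474-like, 5.75% in MDA-MB-231-like, 4.51% in MDA-MB-453-like, 8.84% in HCC38-like and 6.16% in Hs578T-like cells and 6.74% in suffix 6. The SOX4 ratio was 7.71 in HCC38-like, 3.99 in MDA-MB-231-like, 2.76 in Hs578T-like, 2.62 in BT-474-like and 1.66 in MDA-MB-453-like cells and 1.51 in suffix 6. Genes with a mean within 1.5-fold of that of SOX4 had median ratios between 1.05 and 1.40 in these groups. The SOX4 ratio was above that of 99.7% of 2507 such genes in MDA-MB-231-like cells, 98.8% of 846 in HCC38-like cells and 93.1% of 160 in BT-474-like cells. Against genes of its own mean, SOX9 ranked above SOX4 in BT-474-like cells (95.6%) and in MDA-MB-453-like cells (97.0% against 94.0%). It ranked below SOX4 in the other groups, narrowly in Hs578T-like cells (98.6% against 98.9%) and suffix 6 (96.4% against 97.1%). With at most 9 UMIs counted per cell the ratio was 2.70 in MDA-MB-231-like and 3.31 in HCC38-like cells, so that a few cells with high counts held part of the spread. SOX12 stayed between 0.981 and 1.15 in the 6 groups.

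**Figure D2:**
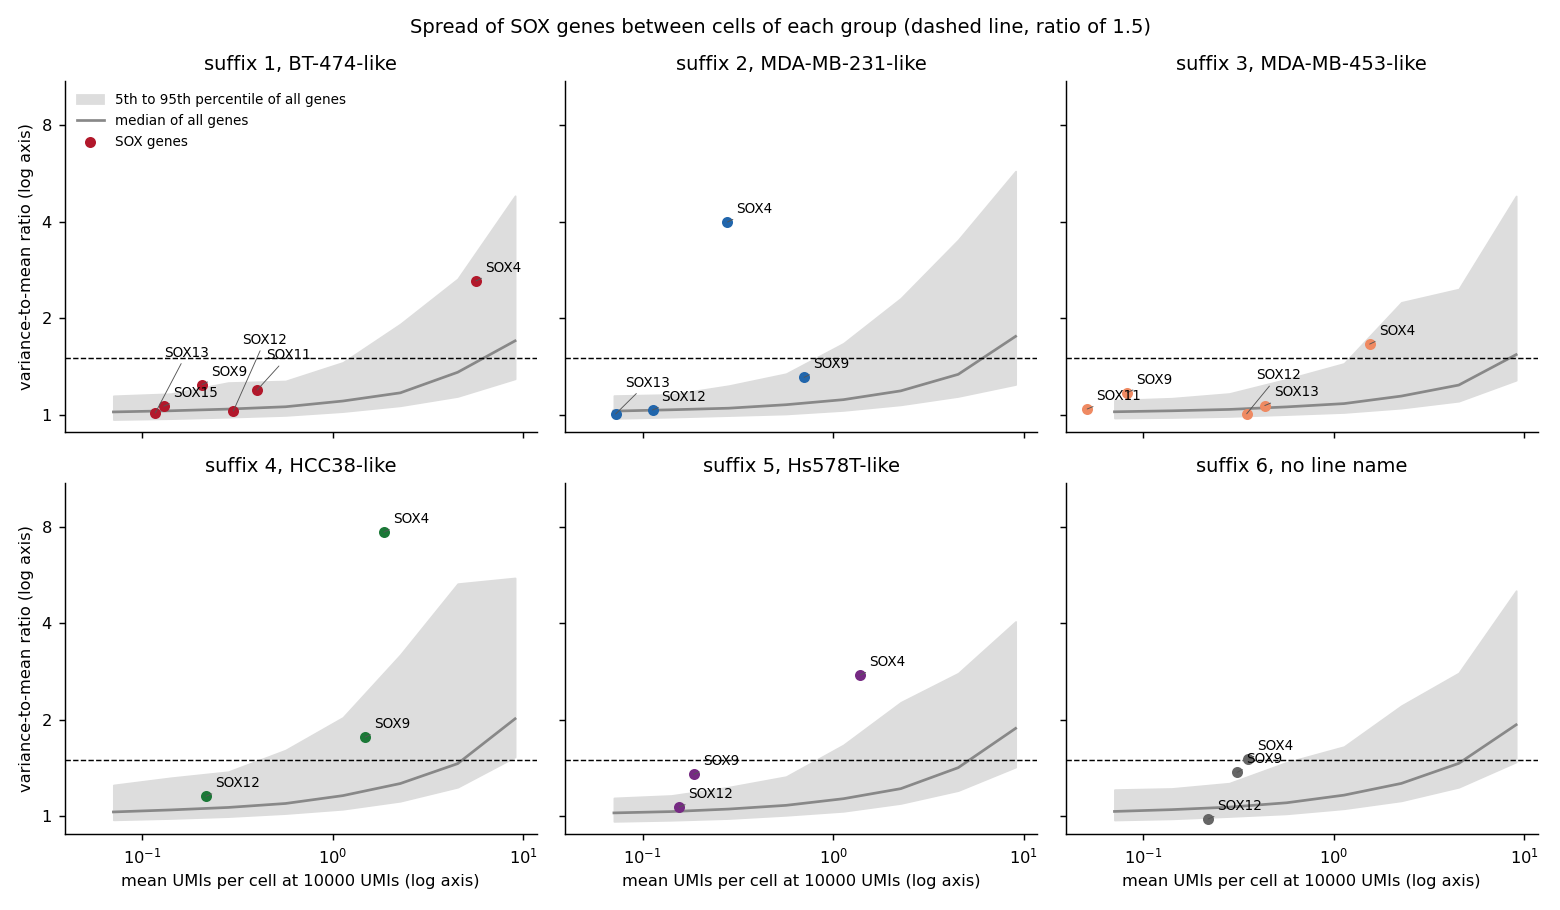
Variance-to-mean ratio of counts between cells against mean UMIs per cell, each cell thinned to 10000 UMIs, for the SOX genes in each group beside the median and the 5th to 95th percentile of all genes of like mean. SOX4 lies well above that range in HCC38-like (7.71), MDA-MB-231-like (3.99) and Hs578T-like cells (2.76) and near its upper edge in the other groups, and SOX12 stays at 1.15 or less.

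The share of cells with a SOX4 UMI at this depth was 97.0% in BT-474-like cells (96.2 to 97.7), 72.4% in MDA-MB-453-like, 62.6% in Hs578T-like and 54.5% in HCC38-like cells, 25.4% in suffix 6 and 14.9% in MDA-MB-231-like cells (13.6 to 16.3). Before thinning the shares were 99.9%, 90.1%, 90.7%, 80.7%, 53.5% and 27.3% in the same order of groups. HCC38-like cells had a higher SOX4 level in CPM than MDA-MB-453-like cells, an order that TMM factors reversed, but a lower share of cells with a UMI. Counting from the mean alone would give HCC38-like cells a share of 84.3%. In HCC38-like cells 1124 of 2468 had no SOX4 UMI, while 89 (3.61%) had 10 or more, up to 52. The 10% of HCC38-like cells with most SOX4 held 54.8% of its UMIs, and in BT-474-like cells that share was 24.7%. SOX9 was seen in 66.0% of HCC38-like, 45.9% of MDA-MB-231-like, 17.1% of BT-474-like, 15.2% of Hs578T-like and 7.40% of MDA-MB-453-like cells and in 23.2% of suffix 6. SOX11 was seen in 30.8% and SOX15 in 11.9% of BT-474-like cells, and SOX13 in 34.5% of MDA-MB-453-like cells.

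**Figure D3:**
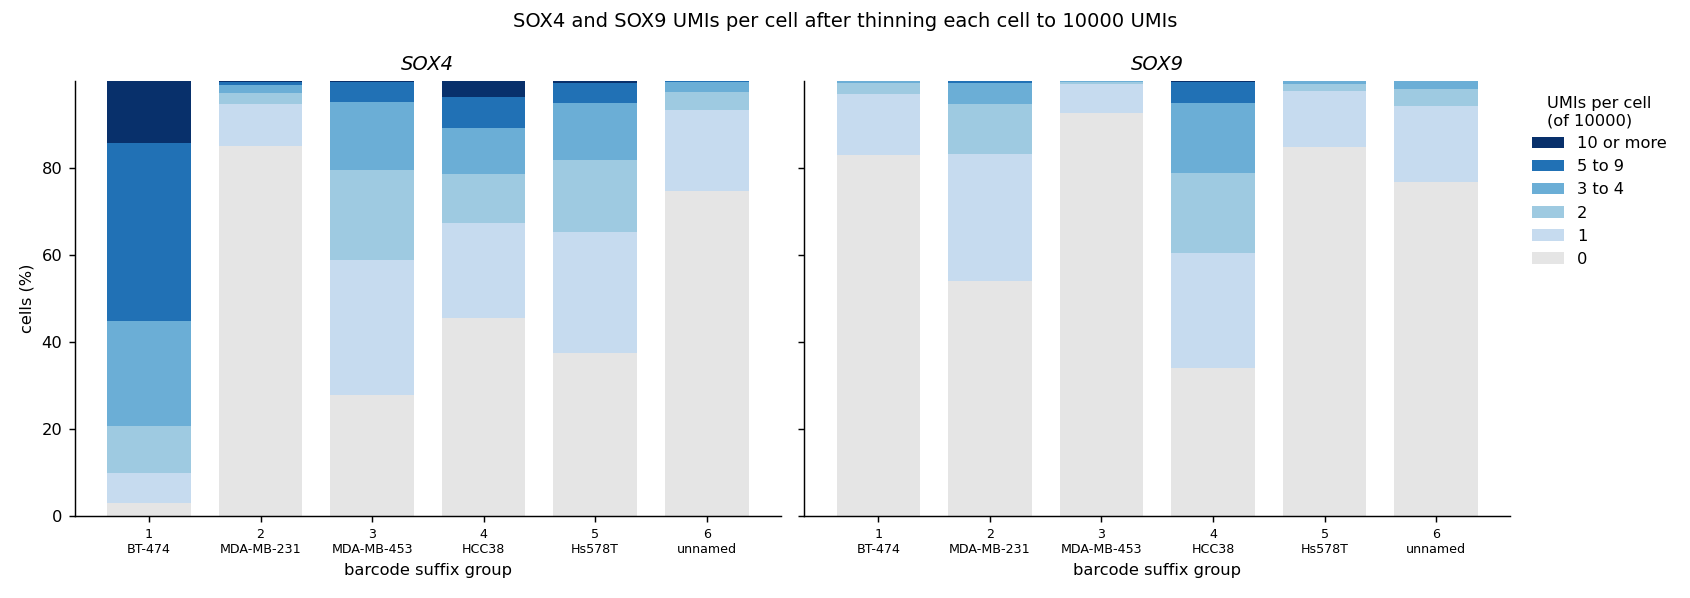
Share of cells (%) by number of UMIs per cell, each cell thinned to 10000 UMIs, for SOX4 and SOX9 in the 6 groups. In BT-474-like cells 14.3% had 10 or more SOX4 UMIs, and in MDA-MB-231-like cells 85.1% had 0.

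In MDA-MB-231-like cells the SOX4 counts were uneven, but a single SOX4 UMI did not set a cell apart from background. Of 2910 cells, 434 had a SOX4 UMI and 2476 had none, where counting from the mean alone would give 24.3% of cells a UMI. There were 278 cells with 1 UMI, 74 with 2, 55 with 3 to 4, 23 with 5 to 9 and 4 with 10 or more, up to 30. The top 10% of cells held 82.4% of SOX4 UMIs. Without the 49 mixed cells, 393 of 2861 cells (13.7%) had a UMI, 56 had 3 or more, the highest count was again 30, the top 10% held 84.1%, and the ratio of variance to mean was 3.93. Leaving out every cell at 5% or more of another line gave a share of 13.2% and a ratio of 3.90. Of the 50 BT-474-specific genes, 7 had a mean at or above that of SOX4 in BT-474-like cells (8.26 to 34.9 UMIs, beside 5.67 for SOX4), and without mixed cells these 7 were seen in 8.81% to 23.4% of MDA-MB-231-like cells (median 11.4%). The SOX4 share of 13.7% lay within that range, so cells with 1 SOX4 UMI cannot be told apart from background. Without mixed cells, 3 or more UMIs were found in 56 cells for SOX4 and in at most 16 cells for any of these 50 genes, whose variance-to-mean ratios reached at most 1.43. Among 50 MDA-MB-453-specific genes, the 13 with a mean within 1.5-fold of that of SOX4 in MDA-MB-453-like cells were then seen in at most 2.73% of MDA-MB-231-like cells, with 3 or more UMIs in at most 1 cell. Over all 50 of those genes, which include far more abundant ones, the highest values were 54.3% and 316 cells and the highest ratio was 1.92. Mixed cells were called by these same genes and never by SOX genes, which lowers the high counts of these genes by construction. With mixed cells kept, 82 cells had 3 or more SOX4 UMIs, beside at most 55 for a BT-474-specific and 342 for an MDA-MB-453-specific gene. The ratios of these genes then reached 11.7 and 3.73, beside 3.99 for SOX4. These values therefore cannot tell whether higher SOX4 counts differ from background. SOX11, which lay within the range of BT-474-specific genes in this group, was seen in 0.687% of MDA-MB-231-like cells at 10000 UMIs (0.315% without mixed cells) and in 30.8% of BT-474-like cells. Before thinning these shares were 2.16% in MDA-MB-231-like and 61.2% in BT-474-like cells, at median depths of 26390.5 and 28527 UMIs.

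Which transcripts varied with SOX4 across MDA-MB-231-like cells depended on the mixed cells. Over all 2910 cells the 8 genes most correlated with SOX4, on ln(1 + counts per 10000), were SPDEF (r = 0.39), IGFBP5 (0.36), MARCKSL1 (0.34), TFF3 (0.34), PMEPA1 (0.34), AGR2 (0.32), CD24 (0.31) and CRIP1 (0.31). SPDEF, TFF3 and AGR2 are genes of luminal secretory cells. Without mixed cells r was 0.09 for IGFBP5, 0.08 for CRIP1, 0.13 for CD24 and 0.16 for TFF3. The leading 8 were then CST3 (0.36), CST4 (0.33), ARHGDIB (0.32), SPRY1 (0.32), SPDEF (0.31), PMEPA1 (0.31), MARCKSL1 (0.30) and DUSP4 (0.29). CST3 and CST4 encode cystatins, secreted inhibitors of cysteine proteases, and SPRY1 and DUSP4 are feedback inhibitors of ERK signalling. SPDEF, MARCKSL1 and PMEPA1 stood in both lists. The most negative without mixed cells were the glutathione transferase gene GSTP1 (-0.30), LRRC61 (-0.25), MZT2B (-0.24), CYTOR (-0.24), the ferritin light chain gene FTL (-0.23), the acute phase gene SAA1 (-0.23), the amino acid transporter subunit gene SLC3A2 (-0.22) and LY6E (-0.22). GSTP1, CYTOR, FTL, LRRC61 and SLC3A2 were also among the 8 most negative over all cells, with CD44, RCN1 and the thioredoxin reductase gene TXNRD1. These cells share 1 culture and library, and the correlations are a description.

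Cells with a SOX4 UMI, called SOX4-positive by that count alone, were then set against cells with none, at the same thinned depth. Many of them had 1 UMI, which background also gives. A difference of at least 2-fold was seen for 79 of 8319 genes, of which 69 (0.829%) were higher and 10 (0.12%) lower in SOX4-positive cells. Without mixed cells 38 (0.459%) of 8276 genes were higher and 10 (0.121%) lower. In the 82 cells with 3 or more SOX4 UMIs, 4.04% of genes were higher and 2.43% lower than in SOX4-none cells, and in the 56 such cells that were not mixed 3.69% and 3.65%. Without mixed cells SPDEF, an ETS factor of luminal and goblet cells, was at 33.1 CPM in SOX4-positive and 12.2 CPM in SOX4-none cells, a ratio of 2.71 (2.19 to 3.34). CST4 was at 63.9 CPM in SOX4-positive and 18.3 CPM in SOX4-none cells, AGR2 at 86.0 and 34.4 CPM, SPRY1 at 40.5 and 15.7 CPM, ARHGDIB at 92.4 and 38.5 CPM and MARCKSL1 at 116.0 and 54.7 CPM. These 6 genes were past 2-fold with and without mixed cells, but they were named for their correlation with SOX4 over these same cells. The direction of their ratios therefore largely followed from that choice, and their intervals are no separate support. The same holds for IGFBP5, SAA1 and LRRC61. IGFBP5 was at 159.4 CPM in SOX4-positive and 21.2 CPM in SOX4-none cells over all cells, but at 25.95 and 18.96 CPM without mixed cells (ratio 1.37, 1.09 to 1.70). SAA1 was at 79.1 CPM in SOX4-positive and 221.5 CPM in SOX4-none cells, and LRRC61 at 39.4 and 82.9 CPM, both without mixed cells. ESAM, an adhesion molecule gene among the MDA-MB-231 markers and named here after its values were seen, was at 41.7 CPM in SOX4-positive and 18.1 CPM in SOX4-none cells without mixed cells. Without mixed cells, the median level of the genes of other lines was 2.03% in SOX4-positive and 1.73% in SOX4-none cells, and its part in these ratios was not tested.

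**Figure D4:**
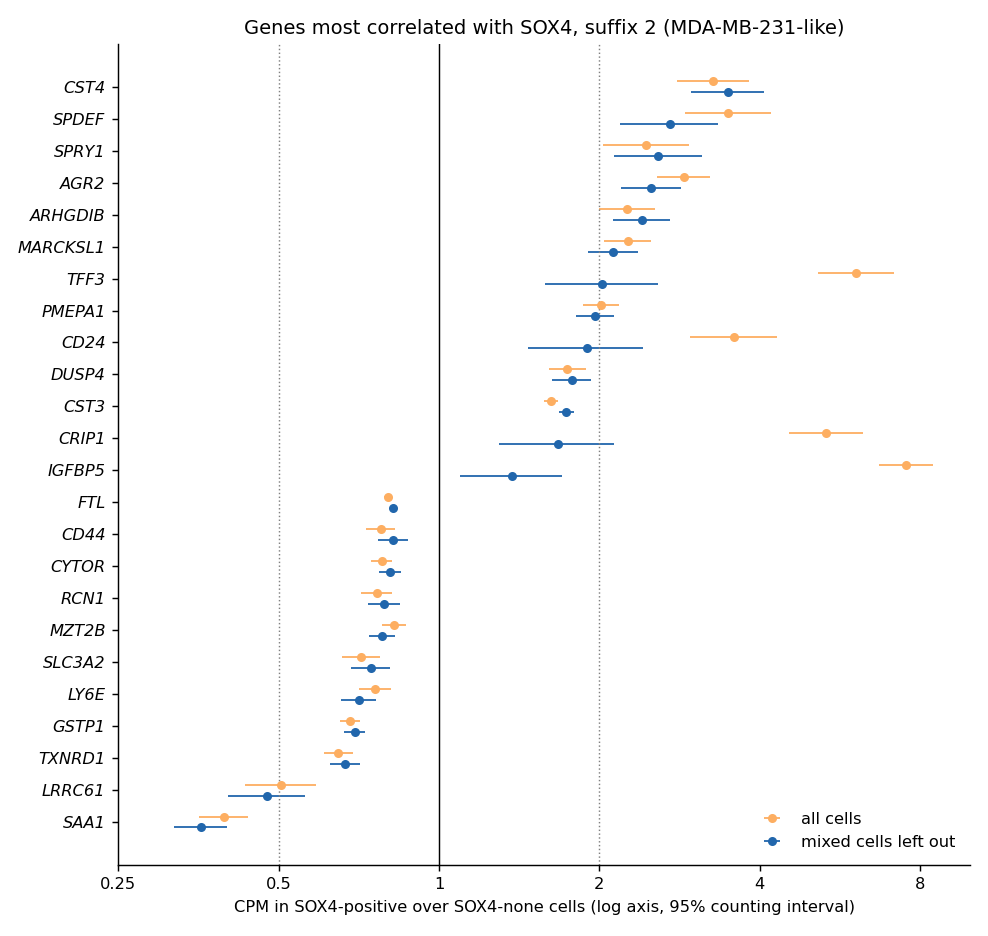
Levels in SOX4-positive over SOX4-none MDA-MB-231-like cells for the genes most correlated with SOX4, over all cells and with mixed cells left out, with 95% counting intervals. IGFBP5 has a ratio of 7.52 over all cells and 1.37 without mixed cells, while SPDEF (3.49 and 2.71) and CST4 (3.27 and 3.49) stay above 2 in both. The genes were chosen by correlation over these same cells, so the direction of the ratios largely follows from the choice.

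Among the gene lists, luminal genes had the highest median in MDA-MB-231-like cells with 1 or more SOX4 UMIs, with and without mixed cells. Over all cells 6 of the 13 that reached 10 CPM in either set of cells were at least 2-fold higher (median log2 ratio 0.97), beside 0.829% of all genes. Without mixed cells 2 of 10 were, SPDEF and AGR2 (median 0.43), beside 0.459% of all genes (median -0.02). KRT8 and XBP1 then had ratios of 0.996 and 0.971. Luminal genes are also high in the other lines of that capture. Of 16, 10 were at least 2-fold above the other 5 groups in BT-474-like and 9 in MDA-MB-453-like cells. The part of background from those lines in the luminal ratios was not tested. Of 18 genes of TGF-beta signalling and SOX4-linked transition 0 passed 2-fold without mixed cells (median -0.03), and over all cells 2 of 19 were higher, CDH1 and PMEPA1. The extremes of that list without mixed cells were PMEPA1 (1.96) and the receptor gene TGFBR2 (1.54) on the high side and SMAD2 (0.816) and TGFB2 (0.788) on the low side. Of 7 neuronal genes linked to SoxC 1 was higher, MARCKSL1. Without mixed cells 0 of 7 mesenchymal, 0 of 4 basal, 0 of 8 WNT, 0 of 20 G1/S, 0 of 20 G2/M and 0 of 19 immediate early and stress genes passed 2-fold in either direction, with VIM at 1.16, BUB1, a mitotic checkpoint kinase gene, at 0.691 and EGR1 at 0.642. In the 56 cells with 3 or more SOX4 UMIs, mixed cells left out, the order of the lists differed, with a median of 0.80 for 6 neuronal genes (2 higher) and 0.72 for 10 luminal genes (4 higher). In those cells 3 of 20 G1/S genes (median -0.55) and 1 of 20 G2/M genes (median -0.49) were at least 2-fold lower, and of 18 TGF-beta and transition genes 2 were higher and 1 lower, beside 3.69% of all genes higher and 3.65% lower. SOX9 was at 66.4 CPM in SOX4-positive and 71.1 CPM in SOX4-none cells, and SOX12 at 9.67 and 11.2 CPM, with ratio intervals that include 1. Median totals were 25026 UMIs in SOX4-positive and 26424.5 UMIs in SOX4-none cells, and median mitochondrial shares 6.14% and 6.27%.

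In HCC38-like cells, where SOX4 reached its highest counts, the 809 cells with 2 or more SOX4 UMIs were set against the 1124 with none. Of 8750 genes, 38 were at least 2-fold higher (0.434%) and 13 lower (0.149%) in SOX4-high cells, and without mixed cells 40 (0.458%) and 15 (0.172%) of 8734. SGK1, a serum- and glucocorticoid-induced kinase gene, was at 51.7 CPM in SOX4-high and 15.4 CPM in SOX4-none cells, a ratio of 3.36 (2.81 to 4.03), and ANK3, which encodes ankyrin-G, at 156.9 and 64.7 CPM. SVIL, an actin-binding gene and the most correlated with SOX4 (r = 0.38), was at 127.9 CPM in SOX4-high and 68.4 CPM in SOX4-none cells. CAV1, which encodes caveolin-1 (r = -0.32), was at 391.7 CPM in SOX4-high and 652.8 CPM in SOX4-none cells. UBE2S, a mitotic ubiquitin-conjugating enzyme gene, was at 593.2 and 965.9 CPM. SGK1, ANK3, SVIL, CAV1 and UBE2S were named for their correlation with SOX4 over these same cells. The direction of their ratios therefore largely followed from that choice. The 20 G2/M genes had a median log2 ratio of -0.70, where all genes had 0.00, and 0 of them passed 2-fold. With 3 or more SOX4 UMIs as the limit, 8 of the 20 were at least 2-fold lower (median -0.96), while 0.794% of all genes were higher and 0.465% lower. The mitotic kinase genes AURKB and AURKA had ratios of 0.505 and 0.521 with the limit of 2 UMIs and mixed cells left out. SOX9 was at 177.6 CPM in SOX4-high and 129.6 CPM in SOX4-none cells, a ratio of 1.37 (1.27 to 1.47). Without mixed cells the transition genes FN1 and VIM differed in direction, FN1 at 115.4 CPM in SOX4-high and 56.4 CPM in SOX4-none cells and VIM at 310.2 and 545.9 CPM. Both are abundant in Hs578T-like cells of the same capture (1266 and 6806 CPM). Genes specific to Hs578T-like cells and to suffix 6 stood in HCC38-like cells at medians of 2.27% and 5.56% of their own level. The part of such background in the values of this comparison was not tested. FOS, an immediate early gene, was at 210.6 CPM in SOX4-high and 102.5 CPM in SOX4-none cells.

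In the other groups the leading positive correlation with SOX4 was at most 0.30. In BT-474-like cells the leading genes were PNRC1 (r = 0.30), the neuropeptide Y receptor gene NPY1R (0.28) and FBXL20 (0.24), and the most negative were FAM111B (-0.31), CENPX (-0.29) and LRRC26 (-0.29). Hs578T-like cells had MARCKSL1 (0.25), PERP (0.25) and the mesenchymal homeobox gene PRRX1 (0.24) on the positive side, and TXNRD1 (-0.27), TALDO1 (-0.23) and TRIB3 (-0.21) on the negative. MDA-MB-453-like cells had ZFP36L1 (0.20), MARCKS (0.17) and PTMS (0.16), and BLVRB (-0.19), DTL (-0.18) and STARD10 (-0.16). Suffix 6 had THBS1 (0.23, and 0.18 without mixed cells), EPB41L3 (0.21) and MYO10 (0.21), and UCHL1 (-0.22), BHMT2 (-0.21) and PPIA (-0.20). MARCKSL1 was thus among the leading genes in both MDA-MB-231-like and Hs578T-like cells, and TXNRD1 was the most negative in Hs578T-like cells and among the 8 most negative in MDA-MB-231-like cells only with mixed cells kept (-0.23, and -0.21 without them). SOX9 in HCC38-like cells varied with the GATA-type repressor gene TRPS1 (0.36), the desmosomal cadherin gene DSC2 (0.35) and KLF6 (0.33), and against COTL1 (-0.34), CAV1 (-0.30) and FABP5 (-0.29). COTL1 and CAV1 were on the negative side of SOX4 there too.

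SOX4 was also followed along the cell cycle and cell quality, by ranking the cells of a group and splitting them into 3 equal parts, mixed cells left out. By UMIs of the G2/M list, SOX4 was at 99.4 CPM in the highest and 303.0 CPM in the lowest part of HCC38-like cells, a ratio of 0.328 (0.302 to 0.356). In MDA-MB-231-like cells it was at 20.4 CPM in the highest and 33.4 CPM in the lowest part (0.609, 0.507 to 0.730). The same ratio lay between 0.933 and 1.10 in the other 4 groups. By UMIs of the G1/S list it was 0.425 in MDA-MB-231-like, 0.525 in HCC38-like, 0.731 in MDA-MB-453-like and 0.790 in BT-474-like cells, 0.786 in suffix 6 and 1.09 in Hs578T-like cells. By total UMIs, SOX4 was also lower in the deepest than in the shallowest part, at 0.531 in MDA-MB-231-like, 0.560 in HCC38-like and 0.730 in BT-474-like cells. In MDA-MB-231-like cells this ratio was 0.851 (0.727 to 0.996) with mixed cells kept. Without them SOX4 there was at 35.7, 16.0 and 19.0 CPM from the shallowest to the deepest part. The part of depth in the cell cycle ratios was not tested. By mitochondrial share the ratio was 1.02 in MDA-MB-231-like cells (0.846 to 1.24), against 1.52 (1.28 to 1.80) with mixed cells kept. In suffix 6 it was 0.564 (0.467 to 0.679), with 24.5 CPM in the highest and 43.4 CPM in the lowest part. As SOX4 varies between cells beyond counting, these intervals are too narrow.

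**Figure D5:**
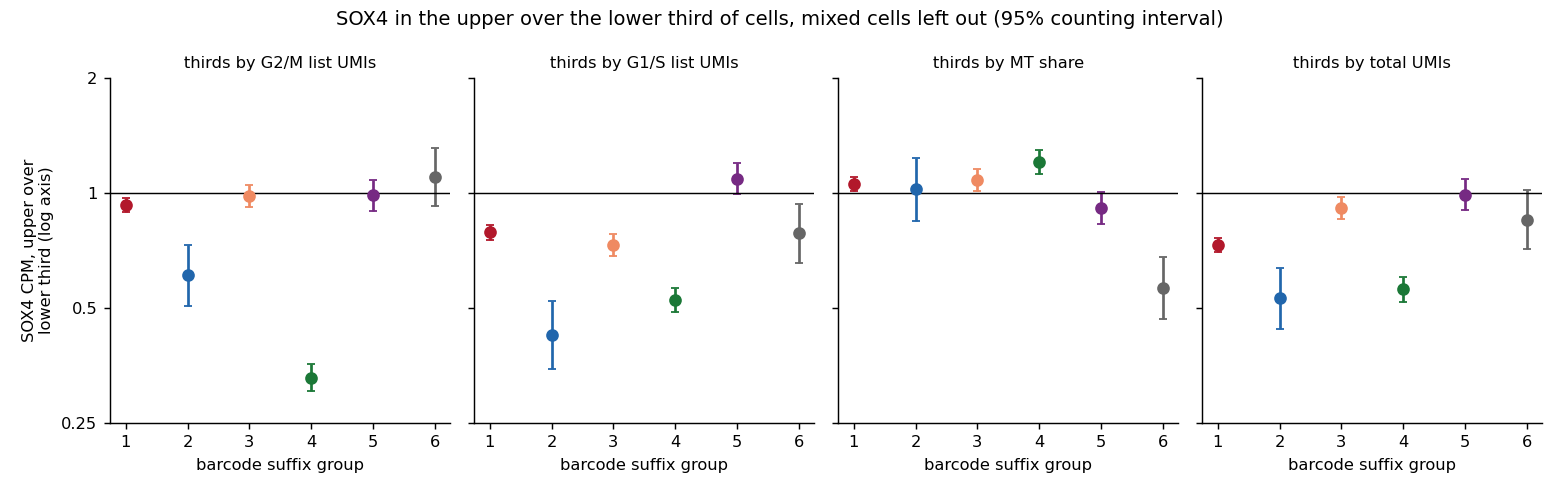
SOX4 in the highest over the lowest of 3 equal parts of the cells, ranked by G2/M list UMIs, G1/S list UMIs, mitochondrial share and total UMIs in the 6 groups, mixed cells left out, with 95% counting intervals. HCC38-like cells have 0.328 by G2/M UMIs, and suffix 6 has 0.564 by mitochondrial share.

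Other members took their own directions along these rankings. In BT-474-like cells SOX11 was at 51.3 CPM in the highest and 32.5 CPM in the lowest part by G2/M UMIs (1.58, 1.34 to 1.86) and SOX15 at 18.2 and 10.0 CPM (1.83, 1.37 to 2.46), while SOX12 was at 24.6 and 34.5 CPM (0.712, 0.585 to 0.864). By mitochondrial share SOX11 had a ratio of 1.00 in these cells (0.854 to 1.18). SOX9 was at 134.7 CPM in the highest and 188.0 CPM in the lowest part of HCC38-like cells by G2/M UMIs (0.716, 0.662 to 0.775), but at 41.1 and 22.5 CPM in suffix 6 (1.83, 1.51 to 2.22). SOX12 in Hs578T-like cells was at 17.6 CPM in the highest and 9.89 CPM in the lowest part by mitochondrial share (1.78, 1.29 to 2.46).

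The share of cells with both members of a pair was set beside the product of their separate shares. Over 36 pairs with both genes in at least 5% of thinned cells, the share of cells with both lay between 0.806 and 1.15 times that product, and between 0.747 and 1.15 times without mixed cells. SOX4 and SOX9 were together in 37.8% of HCC38-like cells (35.9 to 39.8), where the product was 35.9% (r = 0.26). In Hs578T-like cells they were together in 10.96% (9.61 to 12.4) beside a product of 9.52% (r = 0.19), and in MDA-MB-231-like cells in 6.74% (5.85 to 7.71) beside 6.85% (r = -0.03). In BT-474-like cells, 97.0% of which had a SOX4 UMI, the share shared with SOX4 was nearly fixed by that of the other gene, and such pairs say little.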

How the data were processed

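The deposited values are raw UMI counts per gene and barcode, which the authors gave as 1 matrix with the counts of the multiplexing oligos. Per the file headers the software was Cell Ranger 6.1.2, and the submitters' processing notes name GRCh38 (hg38) as the build. Barcodes with over 20% mitochondrial UMIs were left out, with no other floor. UMIs were summed per suffix group and scaled to CPM, and a gene was measured at 10 CPM in at least 1 group. Ratios used a pseudocount of 1 CPM on the log2 scale. Intervals at 95% are exact Poisson (levels), Clopper-Pearson (shares) and conditional binomial (ratios), and a count of 0 was given a limit of 3 counts. For comparisons between cells, each cell with 10000 UMIs or more was thinned to 10000 (seed 1), which left out 16 to 101 cells per group. Doublets were kept, and 258 cells called by Scrublet (scanpy 1.11.5, expected rate 0.06, per capture) were left out as an alternative. A cell was called mixed where 50 genes chosen for a different line of its capture (at least 50 CPM there, no SOX gene) reached 25% of that line's median.

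The genes named are the 8 members, the 8 most and 8 least correlated with SOX4 in MDA-MB-231-like cells, 3 and 3 for other members with a thinned mean of at least 0.2 UMI and a ratio of at least 1.5, among genes with a UMI in 10% of cells, the 3 nearest genes across groups, and the extremes of each list. The design set the cells with a SOX4 UMI that were at or above the 75th percentile of SOX4 against cells with none. In MDA-MB-231-like cells so few had a UMI that this was every cell with 1 or more, and in HCC38-like cells it was 2 or more. The members and lists were chosen with earlier results of these data known. Alternatives were other cell filters, TMM factors (edgeR 4.0.16, R 4.3.3), pseudocounts, thinning depths and a second seed, and the removal of mixed cells, the background shares of BT-474-specific genes, the threshold of 3 SOX4 UMIs and the limit of 9 UMIs per cell were chosen after seeing the data. Scripts ran in Python 3.11.15 with numpy 2.4.6 and scipy 1.17.1 and were tested on simulated data. Cells are not replicates, and no test was run.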

Additional observations from a re-analysis of the deposited data

How the results depend on the processing

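In all, 1287 values were recomputed under the alternatives. Among summary values 85 stayed the same and 21 moved. Among single values 1049 stayed the same, 80 moved, 42 became weaker and 10 stronger. A change of direction was defined only for log2 ratios past 2-fold, and 0 of these changed direction. Levels across groups depended on the pseudocount most. With 10 CPM, 11 of the member and group values were past 2-fold in place of 22 (6 in place of 17 lower), 14 in place of 22 within captures (8 in place of 14 lower), and 0 in place of 2 members stood 4-fold above the next group, as low levels such as those of SOX15 count for less by construction. TMM factors left the count against the other 5 groups at 22 and were not run for the other 2 counts. They lowered HCC38-like levels and raised BT-474-like levels (log2 factors of 0.22 and -0.15). With them SOX4 in HCC38-like cells fell below its level in MDA-MB-453-like and Hs578T-like cells. With cells thinned to 5000 UMIs, 4 in place of 7 pairs had a ratio of at least 1.5, since less depth lowers the ratio of every varied gene, and SOX4 remained above it in BT-474-like, MDA-MB-231-like, HCC38-like and Hs578T-like cells.

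The comparison of SOX4-positive with SOX4-none MDA-MB-231-like cells depended most on the settings, with 79 genes past 2-fold over all cells (69 higher, 10 lower). It gave 48 without mixed cells (38 higher) and 50 with at most 10% mitochondrial UMIs (39 higher), 41 higher genes without cells at 5% of another line, 43 higher without doublets, and 160 at 5000 UMIs (122 higher, 38 lower), where fewer counts stand behind each gene. With 3 or more SOX4 UMIs, 82 cells gave 557 genes (348 higher, 209 lower) and, without mixed cells, 56 cells gave 635 (319 higher, 316 lower), in which counting error of so few cells is large. The SOX4 ratio of variance to mean there ran between 2.42 (5000 UMIs) and 3.998 (at most 10% mitochondrial UMIs). No paired analysis was possible because each line is 1 culture and the labels give no replicate numbers. Levels under 1 CPM rest on few UMIs and lie near the level at which genes of the other lines of a pool were seen.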

Other observations

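Other SOX genes were mostly silent at this depth. Of 11 further family members, 1 reached 10 CPM in a group, 4 lay between 1 and 10 CPM at their highest, and 6 were under 1 CPM in every group, with SOX1 and SOX14 at 0 UMIs throughout. SOX6, a SoxD gene that partners SOX9 in cartilage, was at 15.3 CPM in BT-474-like and 10.8 CPM in HCC38-like cells and at most 0.697 CPM in the others. Among the SoxF genes, which are known from endothelium, SOX17 was at 3.11 CPM in suffix 6 and at most 0.0621 CPM elsewhere, SOX7 was at 3.30 CPM in HCC38-like and 1.63 CPM in suffix 6 cells, and SOX18 was at 2.25 CPM in MDA-MB-453-like and 1.73 CPM in suffix 6 cells. SOX5, the other SoxD gene besides SOX6 and SOX13, was at 2.13 CPM in suffix 6 and at most 0.301 CPM elsewhere. Of the SOX2 relatives, SOX3 was at 0.328 CPM in suffix 6 and 0.171 CPM in BT-474-like cells, the 2 groups with the highest SOX2 level, and at 0 UMIs in the others.

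Noncoding neighbours of the members were low. SOX9-AS1, which lies on the opposite strand at SOX9, was at 4.34 CPM in BT-474-like cells and 3.75 CPM in HCC38-like cells, so that its order was not that of SOX9, which was at 21.4 CPM in BT-474-like and 141.1 CPM in HCC38-like cells. CASC15, a long noncoding RNA next to SOX4, was at 3.27 CPM in BT-474-like cells, 1.30 CPM in HCC38-like cells and 0.0469 CPM in MDA-MB-231-like cells. SOX2-OT was at 0.694 CPM in HCC38-like cells, which had 0 UMIs of SOX2, and at 0.557 CPM in BT-474-like cells, which had 147.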
